A study of Homo sapiens with 42 samples.

Results

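Solute carriers are the membrane proteins that move sugars, amino acids, lipids, bile acids, metals, nucleotides and ions across cell membranes, and 115 of their genes were measured here out of 5631 genes named by the array. A gene was a member when a probe named it alone and its symbol began with SLC and a digit, or with SLCO. Of 152 such probes the one with the highest mean log2 value stood for its gene, so 88 genes had 1 probe and 27 had more. The members came from 41 families, with 18 mitochondrial carriers of the SLC25 family and 97 others. Of these, 3 entries do not code for a protein by the gene table or by name: SLC26A10P, a transcribed pseudogene, SLC2A1-DT, a noncoding RNA that starts beside the glucose transporter gene, and SLC2A3P1, whose symbol is that of a pseudogene. A further 11 probes named a solute carrier together with another gene and were left out.

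Total RNA of Hep3B, an established human hepatoma line, was measured on 42 arrays, 1 per culture. Cells were given CM, a medium rich in pro-inflammatory cytokines, or its control NCM, and were taken at T0, 15 min, 30 min, 1 h, 3 h, 6 h or 16 h. Each of the 14 groups held 3 arrays, 1 from each of 3 independent experiments, and a CM culture had an NCM partner made from a shared batch of cells. The labels say neither what the letters CM and NCM stand for nor what dose was used. Whether the T0 cultures had any contact with the media is also not stated, so a difference at T0 may or may not precede treatment. All cultures are 1 cell line, and by the labels the groups differ in medium and time. The labels do not say that 1 experiment number is 1 batch of cells across times, so batches may also differ between times. The tests of CM against NCM below rest on the spread between pairs within a time, pooled for each probe over the 7 times. The test of NCM over time rests on the spread between arrays of a group.

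Transporters of this superfamily mostly work by coupling the movement of their substrate to an ion gradient or to the exchange of another solute. Hepatocytes use them to take up bile acids and organic anions at the blood side, to pass glucose, amino acids and fatty acids, and to hold iron and zinc stores. In inflammation the liver is known for taking up zinc and iron and for losing bile acid uptake carriers. The SLC25 family sits mainly in the inner mitochondrial membrane, where it exchanges adenine nucleotides, phosphate, citrate, malate, aspartate, carnitine esters and iron between mitochondrion and cytosol.

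No solute carrier gene was called as different between CM and NCM at any time. Under limma, with Benjamini-Hochberg adjustment over 13824 probes and a threshold of 0.05, 0 of 115 members passed at T0, 15 min, 30 min, 1 h, 3 h and 6 h, where 0% of all probes passed. At 16 h 0 members passed, beside 0.00723% of all probes, and for the mean of 3 h, 6 h and 16 h, called the later mean here, 0 passed beside 0.0434%. For the mean of 15 min, 30 min and 1 h, the earlier mean, 0 passed beside 0%, and for an F test of any CM effect after T0 again 0 passed beside 0%. The smallest adjusted p of any member in these tests of CM against NCM was 0.581, that of the bile acid carrier SLC10A2 at 16 h. A change at 1 time had a median standard error of 0.25 on the log2 scale over the members, from 0.16 to 0.72, and the later mean one of 0.15. Values below are log2 intensities after normalization, where 0 is close to the mean over all probes of an array. A change is CM minus NCM, and none of those that follow passed the test unless array weights are named.

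The members nearest to a call were unevenly spread over time. At 16 h 10 members had an unadjusted p under 0.05 with CM higher, or 8.70%, beside 2.89% of all genes, and 1 member did with CM lower, beside 1.79%. At T0, by limma's unadjusted p, 1 member was higher and 2 were lower, beside 2.31% and 3.14% of all genes. The counts were 3 higher and 2 lower at 15 min, beside 1.97% and 1.23%, and 0 higher and 2 lower at 30 min, beside 2.20% and 1.97%. They were 1 and 3 at 1 h, beside 2.34% and 2.10%, then 0 and 1 at 3 h, beside 1.70% and 1.63%, and 1 and 0 at 6 h, beside 1.69% and 1.67%. In the later mean 5 members were higher and 1 lower, beside 3.16% and 2.22% of all genes, and in the earlier mean 2 were higher and 4 lower, beside 3.25% and 3.05%. For the F test 4 members, or 3.48%, had an unadjusted p under 0.05, beside 2.81% of all genes. At 16 h the change lay above 0 for 72 members, or 62.6%, beside 53.0% of all genes, with a median of 0.07 against 0.02. All 3 pairs had CM higher at 16 h for 20 members, or 17.4%, beside 14.6% of all genes, and CM lower for 13 members, beside 12.6%. Genes are not replicates, so these shares describe the arrays and carry no test.

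**Figure D1:**
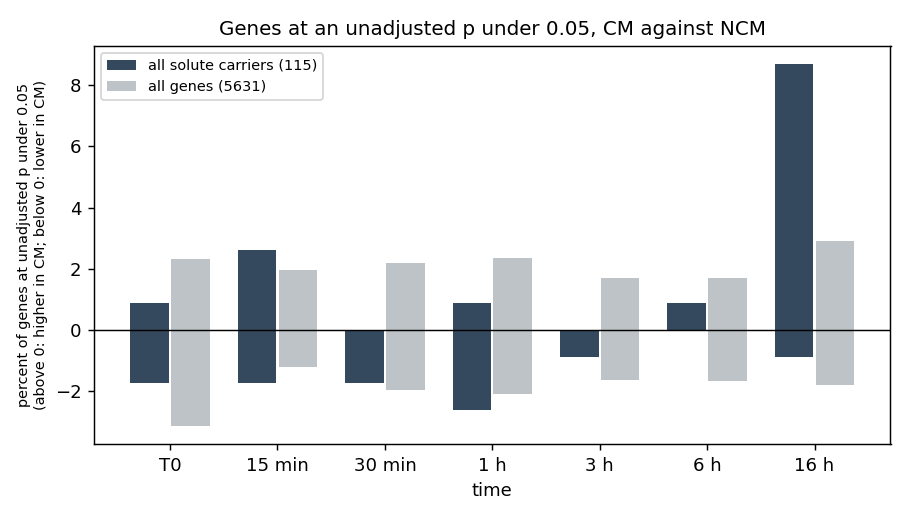
Percent of genes at an unadjusted limma p under 0.05 by time, drawn above 0 where CM was higher and below 0 where CM was lower, for the 115 solute carriers (dark) and all 5631 genes (light). The 16 h bar of the solute carriers reaches 8.70%, against 2.89% of all genes, and no gene behind the dark bars passed after adjustment.

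The 2 least correlated arrays were both NCM, experiment 1 at 1 h and experiment 2 at T0, with a median correlation to the other arrays of 0.723 and 0.731, and the highest array had 0.892. Without both of their pairs 0 members passed in each of the tests above. Only some of the values at 1 h and T0 below are given with and without these pairs, and the others include them. Liver markers were bright: all 13 measured hepatocyte markers lay above the median probe of the array and 5 above its 90th percentile. Of the markers of other cell types, 2 of 4 for macrophages, 2 of 5 for fibroblasts, 0 of 4 for endothelium and 0 of 2 for lymphocytes lay above the median, and 0 of these 15 above the 90th percentile. At 16 h the median changes of these markers were 0.09, 0.18, -0.26 and -0.34 in the same order, with 0 passing the test, and their part in the values below was not tested. By the labels every culture is the same cell line, so these markers are transcripts measured in Hep3B and give no share of other cell types.

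Promoters are shown for the members with the smallest unadjusted p in the F test (SLC10A2), the later mean (SLC27A2) and the earlier mean (SLC38A6). SLC25A28 is added as the mitochondrial carrier with the smallest one in the later mean. Only members with a promoter sequence could be chosen. Each is the 250 bases before the RefSeq start in GRCh38.p14, on the gene's strand, and capitals mark a motif match. SLC10A2 lies at chr13:103066418-103066667 on the minus strand, SLC27A2 at chr15:50181946-50182195 on the plus strand, SLC38A6 at chr14:60980995-60981244 on the plus strand and SLC25A28 at chr10:99620440-99620689 on the minus strand.
SLC10A2: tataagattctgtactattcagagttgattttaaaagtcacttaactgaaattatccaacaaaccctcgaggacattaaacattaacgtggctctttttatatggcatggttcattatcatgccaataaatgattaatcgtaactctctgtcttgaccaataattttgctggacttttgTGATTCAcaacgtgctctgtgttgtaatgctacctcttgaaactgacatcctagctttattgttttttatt
SLC27A2: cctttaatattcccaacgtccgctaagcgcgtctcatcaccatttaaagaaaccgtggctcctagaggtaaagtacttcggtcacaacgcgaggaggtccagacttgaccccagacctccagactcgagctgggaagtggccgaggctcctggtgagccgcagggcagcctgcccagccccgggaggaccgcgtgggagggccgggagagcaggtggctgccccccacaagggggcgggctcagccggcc
SLC38A6: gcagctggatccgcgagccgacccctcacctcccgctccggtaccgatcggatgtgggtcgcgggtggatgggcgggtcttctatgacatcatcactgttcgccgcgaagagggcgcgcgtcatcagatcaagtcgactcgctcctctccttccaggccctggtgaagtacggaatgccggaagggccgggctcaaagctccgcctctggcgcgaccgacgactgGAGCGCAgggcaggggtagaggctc
SLC25A28: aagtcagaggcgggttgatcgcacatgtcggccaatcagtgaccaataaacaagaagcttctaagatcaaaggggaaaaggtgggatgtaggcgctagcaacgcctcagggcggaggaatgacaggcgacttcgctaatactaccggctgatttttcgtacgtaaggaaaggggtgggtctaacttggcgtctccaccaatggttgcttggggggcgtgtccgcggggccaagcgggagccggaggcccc
The capitals in SLC10A2 match the AP-1 motif and begin 71 bases before the start, and those in SLC38A6 match the core of a metal response element 25 bases before the start. SLC27A2 and SLC25A28 held none of the 5 motifs searched. GC content was 33.2% in the SLC10A2 window, against 64.4%, 66% and 56.8% in the order of the other lines. Promoter sequences were found for 91 of the 115 members, in 131 windows because some genes have several starts.

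Across these windows the motif shares were near those of all promoters. On either strand, the STAT motif TTCNNNGAA was in 9.92% of the member windows and 6.57% of all 35116 promoters, and the AP-1 motif TGANTCA was in 6.87% and 6.57%. The NF-kappaB motif, GGG, any 2 bases and TTTCC, was in 0.763% and 1.73%, and the C/EBP motif TTGCNNAA in 6.11% and 9.05%. The metal response element core TGCGCNC was in 20.6% of the member windows and 16.8% of all promoters. A base could count in more than 1 motif, and a match is a run of letters, not a bound site. Median GC content was 64.8% in the member windows and 58% in all promoters. The 17 windows of 15 mitochondrial carriers held the STAT motif in 2, the metal response element core in 2, the NF-kappaB motif in 1 and the AP-1 and C/EBP motifs in 0.

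Among the 10 carriers of organic anions, organic cations and bile acids, SLC10A2 had the values farthest apart. It is the sodium-dependent bile acid carrier of the ileum, kidney and bile duct. At 15 min its NCM values were -0.23, -0.29 and -0.15 and its CM values -0.70, -1.03 and -0.69, in the order of experiments 1 to 3. At 30 min NCM gave -0.41, -0.44 and -0.83 and CM -1.11, -1.16 and -1.26. All CM cultures were thus below all NCM cultures at both of these times. At 16 h NCM gave -1.54, -1.81 and -0.73 and CM -0.42, -0.77 and -0.26. CM was higher in 3 of 3 pairs there, although the lowest CM culture lay just under the highest NCM culture.

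The change of SLC10A2 was -0.58 at 15 min and -0.62 at 30 min, and 0.88 at 16 h (SE 0.22 each), a 1.84-fold difference at 16 h with a 95% interval from 0.42 to 1.34 on the log2 scale. At T0 it was already 0.39, with CM higher in 3 of 3 pairs, and at 1 h, 3 h and 6 h it was 0.38, 0.35 and 0.06. The later mean was 0.43 (SE 0.13, CM higher in 8 of 9 pairs, adjusted p = 0.604 by limma). Set against the change at T0, the 16 h value was 0.49 and the later mean 0.04. The difference between the changes at 16 h and 30 min was 1.49 (SE 0.31, adjusted p = 0.484 by limma). That between 16 h and 15 min was 1.46 (SE 0.31, adjusted p = 0.396 by limma), and that between the later and earlier means 0.70 (SE 0.18, adjusted p = 0.589 by limma). The F test over the times after T0 gave an adjusted p of 0.849 by limma. NCM cultures alone moved over a range like that of the changes: their mean was -1.10 ± 0.11 (SD, n = 3) at T0, -0.22 ± 0.07 at 15 min and -1.36 ± 0.56 at 16 h. Over the 7 times the NCM values had an unadjusted p of 0.0146 and an adjusted p of 1.00 by limma.

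SLC10A1, the main bile acid uptake carrier of the hepatocyte, had NCM values of -0.80, -0.48 and -0.06 and CM values of 0.39, -0.24 and -0.98 at 16 h. The groups overlapped and the pairs disagreed in direction, with a change of 0.17 (SE 0.30). Its later mean was 0.16 (SE 0.18, 6 of 9 pairs higher). At 3 h it was 0.48, with CM higher in 3 of 3 pairs, but at T0 already 0.38, and against T0 the 3 h change was 0.10. SLCO2B1, an organic anion carrier of the hepatocyte's blood side, had a later mean of 0.03 (SE 0.12) and a value of 0.42 at T0. The organic anion carriers SLC22A7, SLC22A9, SLC22A10 and SLC22A25 had later means of -0.01, 0.07, 0.08 and 0.02. SLC22A25, SLC22A10 and SLC22A9 are neighbours on chromosome 11. SLC47A1, which exports organic cations into bile and urine, had a later mean of -0.13 (SE 0.11, 2 of 9 pairs higher). The class had 7 of 10 changes above 0 at 16 h with a median of 0.16, beside 53.0% and 0.02 for all genes.

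SLC27A2, a fatty acid transport protein and very long chain acyl-CoA synthetase, had the largest later mean of all members. Its NCM values at 16 h were -1.34, -0.64 and -2.24, and its CM values -0.93, 0.14 and -0.04. At 6 h NCM gave -1.08, -0.70 and -0.82 and CM -0.56, -0.01 and -0.46, so that each CM culture was above every NCM culture. The later mean was 0.78 (SE 0.22, 1.71-fold, 8 of 9 pairs higher, adjusted p = 0.604 by limma). At 16 h the change was 1.13 (SE 0.38, 2.19-fold), from pair differences of 0.41, 0.78 and 2.21. Experiment 3 gave the largest of these, and without it the 16 h change was 0.54 and the later mean 0.41. At T0 the value was -0.45 with CM lower in 3 of 3 pairs, and against it the later mean was 1.22. SLC27A5, the bile acyl-CoA synthetase of the same family, had a later mean of -0.03 (SE 0.16).

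**Figure D2:**
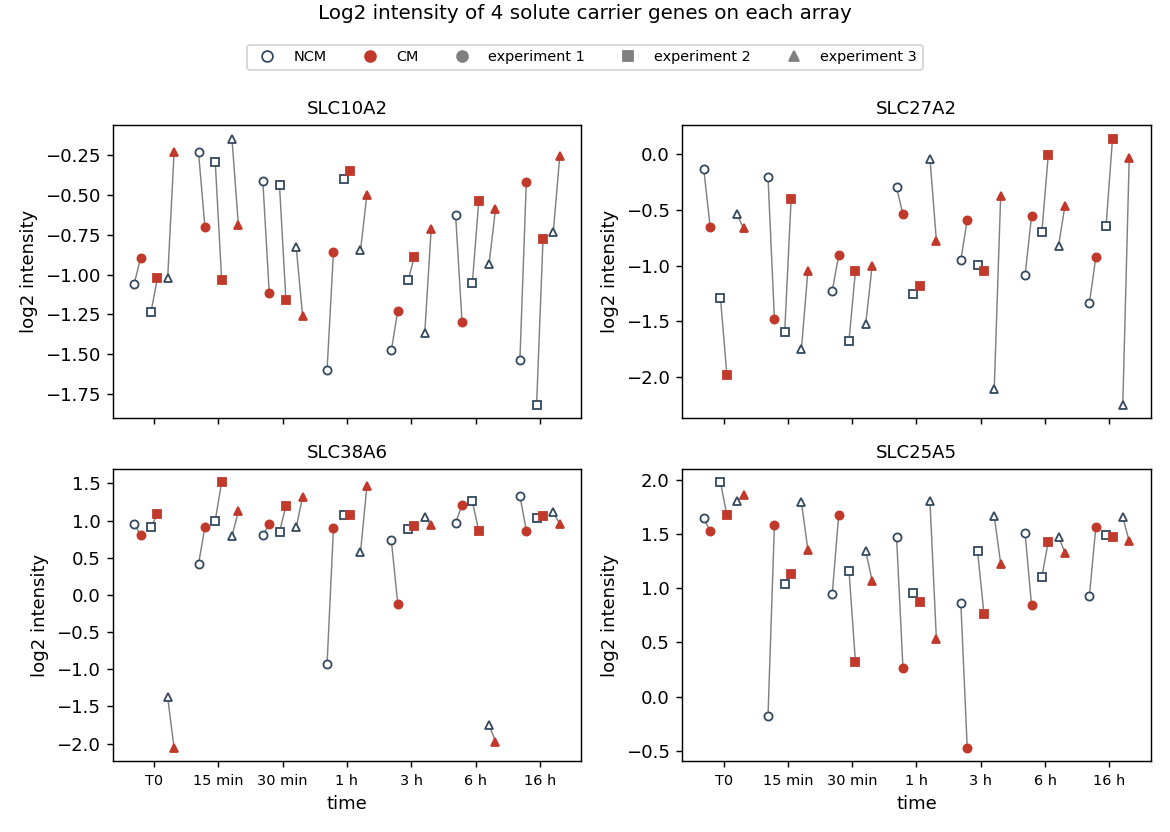
Log2 intensity of SLC10A2, SLC27A2, SLC38A6 and SLC25A5 on each of the 42 arrays by time, with NCM open, CM filled, a symbol per experiment and a line joining the 2 cultures of a pair. SLC10A2 has CM below NCM in every pair at 15 min and 30 min and above NCM in every pair at 16 h, and SLC38A6 has cultures far below the rest at T0, 1 h and 6 h.

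The amino acid and peptide carriers, 17 genes, had 14 changes above 0 at 16 h and a median of 0.18, and 0 passed the test. SLC3A2, the heavy chain that brings several amino acid exchangers to the cell surface, had NCM values of -0.99, -0.80 and -1.28 at 16 h and CM values of 0.08, -0.64 and -0.67. The groups did not overlap, and the change was 0.61 (SE 0.21, 1.53-fold, adjusted p = 0.942 by limma). At the earlier times its changes lay between -0.20 and 0.02, and its later mean was 0.12. SLC38A3, a glutamine carrier of hepatocytes, had NCM values of -1.38, -0.37 and -0.18 and CM values of 0.12, -0.22 and -0.13 at 16 h. CM was higher in 3 of 3 pairs with a change of 0.57 (SE 0.30), of which experiment 1 gave the most and the other pairs 0.15 and 0.05. The value at T0 was 0.24.

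SLC38A6, a carrier of the same family, had the highest value of any member in the earlier mean. Its NCM values were 0.41, 1.00 and 0.79 at 15 min and 0.80, 0.85 and 0.91 at 30 min, against CM values of 0.91, 1.52 and 1.13 and of 0.95, 1.20 and 1.32. At 1 h NCM gave -0.93, 1.08 and 0.57 and CM 0.90, 1.08 and 1.47. The groups did not overlap at 30 min and did at 15 min and 1 h. CM was higher in 9 of 9 pairs, with an earlier mean of 0.55 (SE 0.15, 1.47-fold, adjusted p = 0.686 by limma). The 1 h change of 0.91 rested on the low NCM culture of experiment 1, one of the least correlated arrays, and without that pair it was 0.45, and the earlier mean 0.40. At T0 and in the later mean the values were -0.22 and -0.21. A second probe of SLC38A6 had an earlier mean of -0.27.

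SLC38A1 and SLC38A2, glutamine and neutral amino acid carriers that are neighbours on chromosome 12, had opposite values at 3 h by the probes that stood for them. SLC38A1 had NCM values of -0.09, 0.31 and 0.11 and CM values of 1.03, 0.51 and 0.32, which did not overlap, and a change of 0.51. SLC38A2 had NCM values of -1.16, -0.88 and -0.83 and CM values of -1.62, -0.97 and -1.73, with a change of -0.48. With the mean of its 3 probes the 3 h change of SLC38A2 was 0.04, so the opposition depends on the probe. At 16 h the changes were 0.24 (SE 0.27) and 0.06 (SE 0.28). SLC1A4, an exchanger of small neutral amino acids, and SLC7A2, the cationic amino acid carrier of hepatocytes, had later means of 0.03 and 0.06.

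Metal carriers, 15 genes, had 9 changes above 0 at 16 h with a median of 0.13. SLC30A9, of the zinc exporter family, was the only member lower in CM at an unadjusted p under 0.05 at 16 h. It had NCM values of -1.66, -1.28 and -1.27 and CM values of -3.10, -1.90 and -1.49, so that all but 1 CM culture lay below all of NCM. Its probe is among the dimmest 25% of all probes, and the value of -3.10 lies near the floor of -3.62. The change was -0.76 (SE 0.28) at 16 h and -0.55 at T0, and against T0 it was -0.21. SLC39A11, a zinc importer, was lower at 1 h and higher at 16 h, each in 3 of 3 pairs. Its 1 h values were -0.11, -0.49 and -1.12 in NCM and -0.59, -1.52 and -1.67 in CM, and its 16 h values -1.18, -1.28 and -0.81 in NCM and -0.27, -0.82 and -0.66 in CM. The changes were -0.68 and 0.51 (SE 0.21 each), and without the least correlated pair the first was -0.79. The difference between the changes at 16 h and 1 h was 1.19 (SE 0.30, adjusted p = 1.00 by limma).

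SLC39A1, a zinc importer of the plasma membrane, gave -0.54 at 1 h with all 3 pairs lower, -0.32 without the least correlated pair, and 0.22 (SE 0.12, 8 of 9 pairs higher) in the later mean. SLC39A9, a further zinc importer, had NCM values of -0.73, -1.53 and -0.71 and CM values of -0.57, -0.37 and -0.23 at 6 h, which did not overlap. Its change at 6 h was 0.60 (SE 0.24), and 0.34 with the mean of all its probes. SLC39A8, an importer of zinc and manganese known for its response to cytokines in other cells, had a later mean of -0.14 (SE 0.15, 3 of 9 pairs higher). SLC30A1, the zinc exporter of the plasma membrane, had 0.06 (SE 0.17).

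Later means of the iron carriers lay from -0.08 to 0.32. SLC40A1, ferroportin, the iron exporter, had NCM values of 2.36, 2.49 and 2.18 and CM values of 2.26, 2.55 and 2.09 at 16 h, with a change of -0.05 (SE 0.16, 95% interval from -0.38 to 0.29). It had the smallest spread of all members between the pairs of a time, an SD of 0.16. SLC11A2, an importer of ferrous iron, had a later mean of -0.03 (SE 0.11), and SLC25A37, mitoferrin 1, had -0.07 (SE 0.12). SLC25A28, mitoferrin 2, which brings iron into mitochondria, had a later mean of 0.32 (SE 0.11, 1.24-fold, 7 of 9 pairs higher, adjusted p = 0.81 by limma). At 16 h its NCM values were -0.22, 0.50 and 0.19 and its CM values 0.68, 1.04 and 0.10, so experiment 3 was at odds with the other pairs.

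Sugar and monocarboxylate carriers had 3 of 10 changes above 0 at 16 h and a median of -0.06. SLC2A1, the glucose transporter of most cells, had NCM values of -1.40, -0.69 and -1.39 and CM values of -1.15, -1.62 and -1.05 at 16 h, with a change of -0.11 (SE 0.24). SLC2A2, the glucose transporter of the hepatocyte, had NCM values of -0.90, -1.40 and -1.29 and CM values of -1.12, -1.50 and -1.28. Its change was -0.10 (SE 0.19), and its later mean -0.03. SLC37A4, which brings glucose 6-phosphate into the endoplasmic reticulum, had -0.34 at 30 min with CM lower in 3 of 3 pairs and 0.08 (SE 0.09) in the later mean. With the mean of all its probes these were -0.13 and -0.05. SLC16A10, an aromatic amino acid carrier of the monocarboxylate family, was lower in CM at 16 h without overlap, with NCM at 1.49, 1.78 and 1.48 and CM at 0.74, 1.30 and 1.46. Its change was -0.42 (SE 0.21), and the same gene was higher in CM in 9 of 9 pairs of the earlier mean, by 0.18 (SE 0.12). SLC5A12 and SLC2A4 had earlier means of -0.43 and -0.44, and SLC5A12 had 0.59 at 16 h. These 2 genes were chosen after their values were seen.

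SLC20A1, a sodium-phosphate cotransporter, had NCM values of -1.46, -2.95 and -2.59 at 16 h and CM values of -1.11, -2.57 and -1.60. CM was higher in 3 of 3 pairs with a change of 0.58 (SE 0.20), and at T0 the value was 0.41, also with CM higher in 3 of 3. The experiments differed by more than the media, and the probe is among the dimmest 25% of all probes. SLC17A5, the sialic acid exporter of lysosomes, had NCM values of -0.996, -1.40 and -1.41 and CM values of 0.00, -1.15 and -0.18 at 15 min. The change there was 0.82 (SE 0.32), and the earlier mean 0.43 (8 of 9 pairs higher, adjusted p = 0.686 by limma). In the later mean it was -0.32. SLC13A5, the citrate importer of hepatocytes, had a later mean of 0.04 (SE 0.11). The class of 7 had 3 changes above 0 at 16 h.

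In the nucleoside and nucleotide sugar class 12 of 16 changes lay above 0 at 16 h with a median of 0.12. SLC35F5 gave 0.47 and SLC35A3, a carrier of UDP-N-acetylglucosamine into the Golgi, 0.36, each with CM higher in 3 of 3 pairs. SLC35B1, which brings ATP into the endoplasmic reticulum, had NCM values of -1.39, -0.99 and -0.63 and CM values of -0.42, -0.51 and -0.44 at 15 min. The groups did not overlap, and the change was 0.55 (SE 0.24). At T0 it was already 0.32 with CM higher in 3 of 3 pairs, and against T0 the 15 min change was 0.23. At 1 h the same gene was at -0.37, with CM lower in 3 of 3 pairs. SLC29A1, the equilibrative nucleoside carrier, had a later mean of -0.16 (SE 0.27).

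SLC18A2, the vesicular amine carrier, had an earlier mean of -0.51 and a later mean of 0.54 (SE 0.21 each), with 1 of 9 and 6 of 9 pairs higher. At T0 its change was 0.29 (SE 0.37), with CM higher in 1 of 3 pairs. Vitamin and choline carriers had 2 of 5 changes above 0 at 16 h. Ion exchangers had 4 of 6, with SLC12A4, a potassium-chloride cotransporter, at 0.55 at 15 min, 0.47 at T0 and 0.03 at 16 h. The 3 entries that do not code for a protein had 0 changes above 0 in the later mean, and their median was -0.37. SLC2A1-DT was at 1.02 at 15 min and -0.49 (SE 0.22, 4 of 9 pairs higher) in the later mean, while SLC2A1 itself was at -0.32 and -0.01. With array weights, which limma estimates from how far each array departs from the fit, 5 members passed at 15 min beside 3.84% of all probes and 3.45% of all genes: SLC17A5, SLC41A3, SLC12A4, SLC4A1 and SLC10A2, with adjusted p from 0.0157 to 0.0453. The pair of experiment 3 had a weight of 4.10 and that of experiment 1 one of 0.310 there. Without experiment 3 the 15 min change of SLC17A5 was 0.57.

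**Figure D3:**
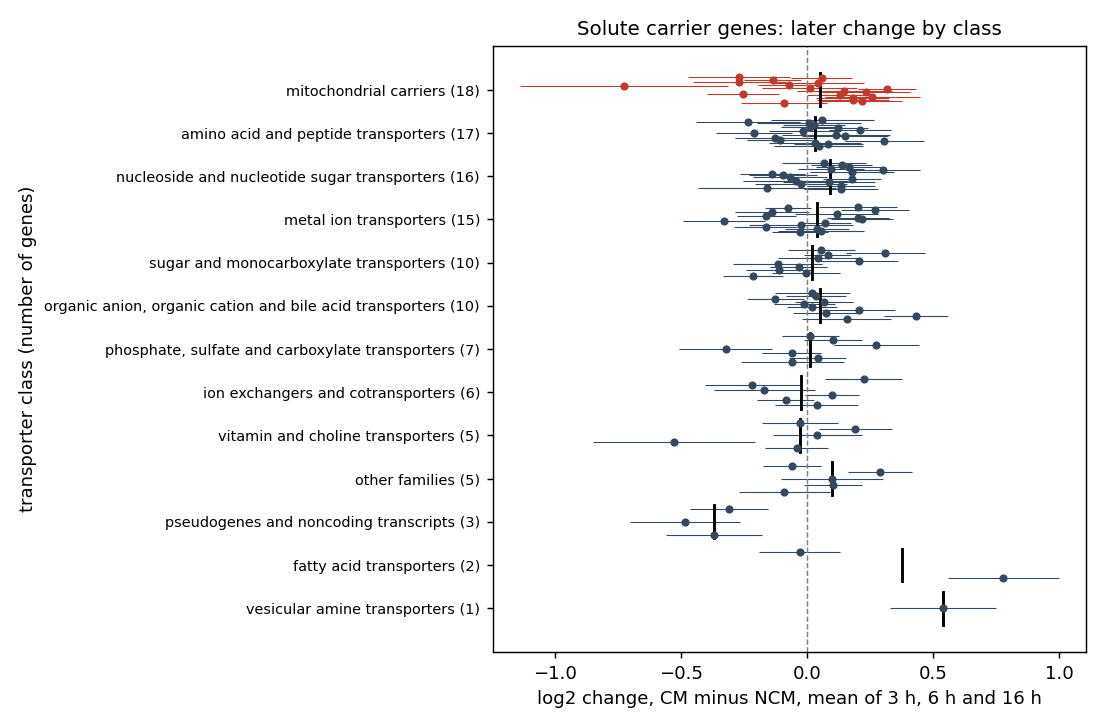
Later mean of the log2 change, CM minus NCM over 3 h, 6 h and 16 h, for each of the 115 genes by transporter class. Points are genes, thin bars the standard error, thick ticks the class median and red marks the mitochondrial carriers. The class medians lie near 0 except in classes of 3 genes or fewer, and SLC27A2 (0.78) and SLC25A30 (-0.73) are the outermost genes.

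The mitochondrial carriers as a group did not stand on 1 side of the other members over the time course. The median change of the 18 SLC25 genes minus that of the 97 others was -0.16 at T0, 0.10 at 15 min, 0.00 at 30 min, 0.03 at 1 h, -0.02 at 3 h, -0.06 at 6 h and 0.02 at 16 h. It was 0.02 in the earlier mean and 0.01 in the later mean. Taken pair by pair, the difference was below 0 in 3 of 3 pairs at T0, from -0.18 to -0.11, and above 0 in 3 of 3 at 15 min, from 0.02 to 0.18. At 16 h it was below 0 in all 3 pairs, from -0.10 to -0.01, although the fitted difference was 0.02, since the median of mean changes is not the mean of the pairs' medians. Without experiment 2 it was -0.12 at T0, -0.15 at 30 min and 0.18 at 1 h. Without the least correlated pairs it was -0.11 at T0. At 16 h 11 of the 18 changes lay above 0, or 61.1%, as did 62.9% of the others. Pair differences of SLC25 genes within a time had a median SD of 0.52, those of the others 0.44 and those of all genes 0.47.

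**Figure D4:**
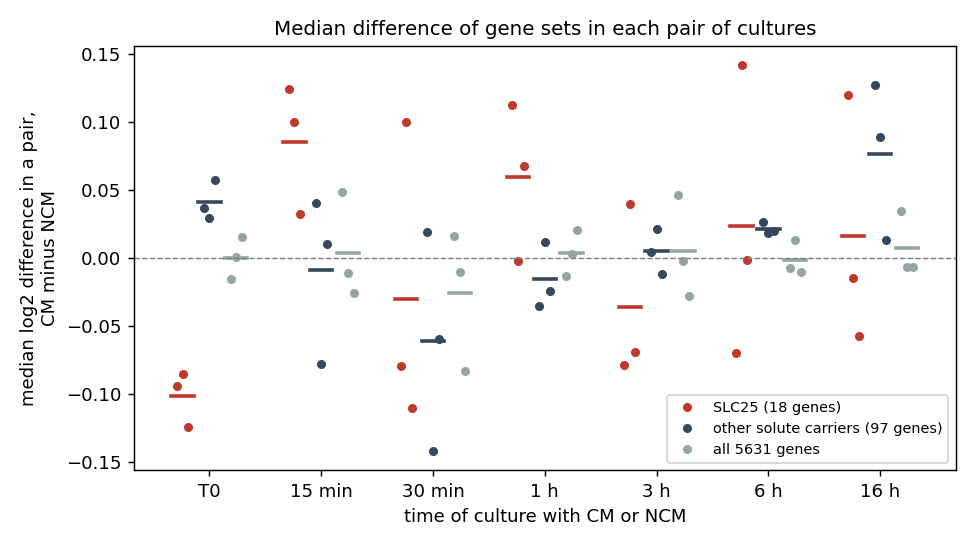
Median log2 difference, CM minus NCM, in each of the 21 pairs by time, for 18 mitochondrial carriers (red), 97 other solute carriers (dark) and all 5631 genes (grey), with bars at the mean of the 3 pairs. The red points lie below the dark ones at T0 in all 3 pairs, above them at 15 min, and on both sides at 30 min, 1 h, 3 h and 6 h.

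Single mitochondrial carriers varied by more than the group. SLC25A5, an ADP/ATP exchanger, had NCM values of 1.47, 0.96 and 1.80 and CM values of 0.26, 0.87 and 0.53 at 1 h, without overlap. At 3 h NCM gave 0.87, 1.34 and 1.67 and CM -0.48, 0.76 and 1.23, again lower in 3 of 3 pairs. The changes were -0.86 and -0.79 (SE 0.35 each, adjusted p = 0.977 and 1.00 by limma). Without the least correlated pair the 1 h change was -0.68. At 15 min the value was 0.48 and at 16 h 0.13, so the lower values did not continue. SLC25A30, an uncoupling-protein relative of kidney mitochondria, had the lowest later mean of all members, -0.73, but with a standard error of 0.41. Its 16 h values were 1.13, 2.49 and 2.06 in NCM and -0.68, 1.15 and 2.69 in CM, so experiment 3 went the other way.

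SLC25A11, the oxoglutarate-malate exchanger, had NCM values of -1.44, -1.23 and -0.88 and CM values of -0.64, -0.57 and -0.67 at 16 h. The groups did not overlap, and the change was 0.55 (SE 0.28). SLC25A13, the aspartate-glutamate exchanger of liver, had -0.51 at 30 min, where CM was below NCM without overlap, and 0.18 in the later mean, beside -0.23 at T0. SLC25A1, the citrate exporter, and SLC25A3, the phosphate carrier, had later means of -0.09 and 0.01. SLC25A20, which exchanges carnitine and acylcarnitine, had -0.26 (SE 0.14, 3 of 9 pairs higher), and -0.02 with the mean of its 2 probes. SLC25A17, of the peroxisome, gave 0.59 at 3 h from pair differences of 1.54, 0.05 and 0.18. SLC25A16, linked to coenzyme A transport, gave 0.52 at 1 h with CM higher in 3 of 3 pairs, but 0.15 without the least correlated pair. SLC25A42, a coenzyme A carrier, gave -0.39 at 6 h with CM lower in 3 of 3. At T0 SLC25A16 was at 0.21, SLC25A17 at -0.43 and SLC25A42 at -0.22. SLC25A26, the S-adenosylmethionine carrier, SLC25A38, the glycine carrier, and SLC25A39, the glutathione carrier, had later means of 0.23, 0.04 and -0.27. The remaining 4, SLC25A18, SLC25A27, SLC25A37 and SLC25A47, lay between -0.07 and 0.15.

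Where a gene had further probes, these mostly did not follow the probe that stood for it. Over the 42 arrays the 37 other probes of 27 genes had a median correlation of -0.05 with the brightest probe, with 20 below 0 and 1 above 0.5. Over the 1705 other probes of all genes the median was likewise near 0, at 0.05, with 42.3% below 0 and 9.44% above 0.5. The 1 probe above 0.5 belonged to SLC25A37 (0.702). The sign of the 16 h change was the same for 19 of 37 other probes, that of the later mean for 20 and that of the earlier mean for 21. SLC16A10 had -0.42 and 0.58 at 16 h by its 2 probes, SLC1A1 had 0.34 and -0.52, and SLC38A3 had 0.57 and -0.26. SLC35F5 had 0.47 and 0.35. The other 88 members had only 1 probe. Arrays share a platform and RNA, so these correlations have no test.

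**Figure D5:**
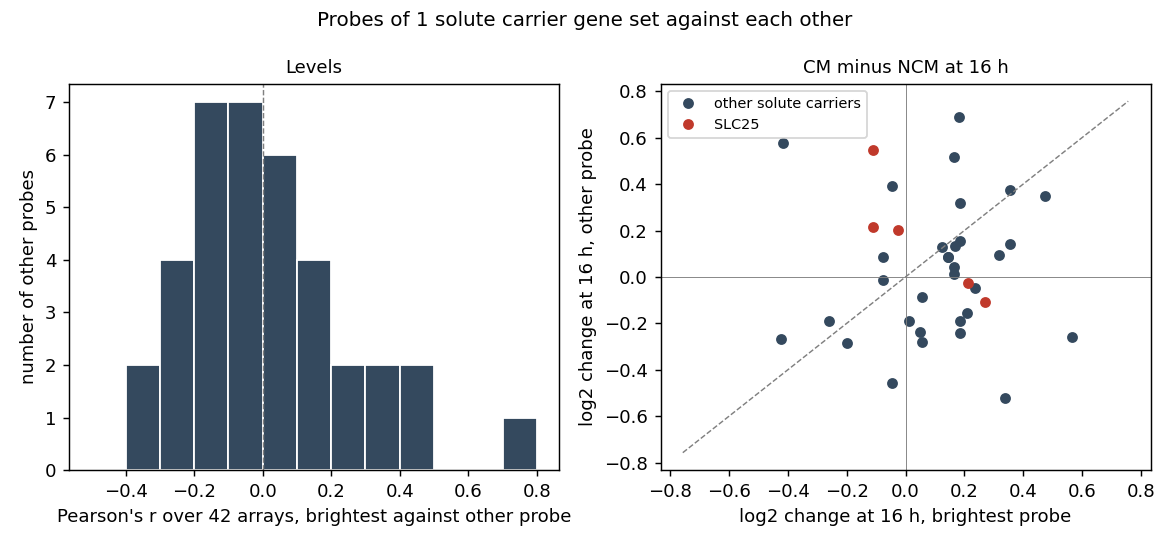
Left, the number of other probes by Pearson's r with the brightest probe of the same gene over 42 arrays. Right, the 16 h log2 change by the brightest probe (x axis) and by the other probe (y axis), with the line of equality dashed and mitochondrial carriers in red. Most r lie between -0.3 and 0.3 and the points fill all quadrants.

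NCM cultures were also compared over time by themselves. In the 21 NCM arrays 0 members passed limma's F test over the 7 times, beside 0.0145% of all probes, and 2 had an unadjusted p under 0.05, or 1.74%, beside 1.85% of all genes. These were SLC35H1 and SLC10A2. SLC35H1 was at -0.41 ± 0.52 (SD, n = 3) at T0 and -1.28 ± 0.21 at 16 h. Between T0 and 16 h 0 members passed, and by unadjusted p 0 were higher and 5 lower. Beside these stand 3.92% of all genes, with both directions counted together. For this comparison neither the share of all probes that passed nor the share of genes in each direction is given here, so no drift is read from the 5. Of the tests of a CM effect between times, 22 per member, 0 passed, and 4.51% had an unadjusted p under 0.05, beside 3.81% over all genes. The share of all probes that passed is given only for the later against the earlier mean, below.

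The later mean minus the earlier mean gave 0 calls, beside 0% of all probes, with a lowest adjusted p of 0.589 by limma. By unadjusted p under 0.05 it was 12 members, or 10.4%, beside 6.45% of all genes, with the later mean above the earlier one for 8 and below it for 4. SLC18A2 had the widest of these differences, 1.05 (SE 0.30), from its earlier mean of -0.51 and later mean of 0.54. SLC38A6 had -0.77 (SE 0.21) and SLC17A5 -0.76 (SE 0.26), and SLC27A2 had 0.65 (SE 0.31). Among the mitochondrial carriers SLC25A28 was the 1 member in this count, with 0.38 (SE 0.16). SLC2A1-DT, the noncoding neighbour of SLC2A1, had -0.92 (SE 0.31).

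Genes that work beside the solute carriers gave 0 calls as well. Of 8 measured ABC transporters of hepatocytes, ABCA1, the exporter of cholesterol to apolipoprotein A-I, came closest, with a later mean of 0.88 (SE 0.16, higher in 9 of 9 pairs, adjusted p = 0.0525 by limma). ABCC2 and ABCC3, exporters of conjugates at the bile and blood side, had -0.25 and 0.24. Among 12 regulators of transporter genes, FOXA1 had -0.48 and CEBPB 0.27 in the later mean. Of 12 genes of iron and zinc handling, 9 had later means above 0 with a median of 0.11, with the metallothioneins MT1E at 0.45 and MT2A at 0.32 and the transferrin receptor TFRC at 0.18. Of 17 measured mitochondrial import and carrier partners, 10 lay above 0 with a median of 0.04, with the aspartate aminotransferase GOT2 at 0.25. The median over all genes was 0.00.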

How the data were processed

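The deposited values are linear intensities, 1 per probe and array, and were the input to the steps below. Their mean over all probes is near 1 on every array. Array medians ran from 0.354 to 0.807, and at most 2.12% of an array's values were below 0. Nothing used here names the scanner, the background step or the scaling. The deposited intensities were quantile normalized on the linear scale, floored at the 1st percentile over all arrays (0.0812) and put on a log2 scale, so each log2 value derives from a deposited intensity.

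Tests used limma 3.58.1 in R 4.3.3, and plots matplotlib 3.10.9. The model took the pair as a block and gave each time its own CM effect, with 14 residual degrees of freedom, a prior SD of 0.309 and 6.26 prior degrees of freedom. Tests were two-sided, with Benjamini-Hochberg adjustment over 13824 probes and a threshold of 0.05. Drift of the controls was tested in the NCM arrays by themselves, unblocked. The fit was tested on simulated data. Pairing comes from the labels. As a check, the departures of paired arrays from their groups' means had correlations from 0.308 to 0.754, and all 21 exceeded 0.1.

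Symbols are those of the array annotation, and 114 of 115 members were matched by Entrez ID to RefSeq genes of GRCh38.p14, used for names and neighbours. Promoters are RefSeq's. At each time the members named had the smallest p among those with every pair in 1 direction, and for the later and earlier means those with at least 8 of 9 pairs. Members with several probes, all SLC25 genes and 28 measured of 52 listed genes could be named too, and SLC2A1-DT, SLC2A4, SLC5A12 and SLC22A10 were named after their values were seen. Members, classes and lists were chosen with earlier results of these data known. Alternatives covered normalization, floor, dim probes, probe choice, pair term, array weights, spread model, left-out experiments and the T0 change. The number of arrays limits the precision.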

Additional observations from a re-analysis of the deposited data

How the results depend on the processing

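Counts of called members were compared 150 times with other settings and 149 gave the same count. The exception was array weights at 15 min, with 5 members in place of 0. With no replicate block, so without the pairing, 0 members were called in every comparison. In a balanced design this leaves each mean change as it was, so it bears on the calls alone.

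The SLC25 difference from the other members moved by more than the spread of its pairs under some settings. On values as deposited and with median centring it was 0.136 at 1 h and 0.0612 at 6 h. Median centring shifts all genes of an array alike, so these settings could not differ here and count as 1 check. Without the dimmest 25% of probes it was -0.0626 at 1 h, and without the dimmest 50% it was -0.0758 at T0 and -0.0799 at 16 h. It was -0.0376 at 16 h with the floor at the 10th percentile, 0.0749 at 3 h after the T0 change was taken off, and -0.0975 at T0 and 0.0673 at 3 h with array weights. Leaving out the pairs of the least correlated arrays, chosen after seeing the data, gave -0.11 at T0. Leaving out 1 experiment at a time gave -0.157 to -0.117 at T0, 0.0653 to 0.125 at 15 min, -0.153 to 0.0431 at 30 min, 0.0753 to 0.178 at 1 h, -0.138 to 0.0401 at 3 h, -0.0615 to 0.152 at 6 h and -0.0846 to 0.0227 at 16 h. The cause of these shifts was not tested.

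Of 1396 gene values recomputed, 1347 stayed within the spread between pairs, 46 moved by more than it and 3 were called, under array weights alone. Of the 1396, 88 had the other sign, and some of these are among the 1347. The 1347 also include the values without the pair block, without dim probes and with the other spread model. These settings left each fitted change as it was, so they are no check of its size or sign. After the T0 change was taken off 21 of 101 took the other sign, as did 12 of the 32 values that changed when a gene's probes were averaged. Of the members, 52 lie among the dimmest 50% of probes, 6 of them SLC25 genes and 46 others, and 3 were at the floor on at least 1 array. Among the dimmest 25% were 26 members, including SLC1A4, SLC12A4, SLC20A1, SLC25A1, SLC25A13, SLC25A17, SLC29A1, SLC30A9 and SLC41A3.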

Other observations

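Probes that name a solute carrier together with another gene cannot be given to 1 gene, and 11 such probes were on the array. Both probes shared by SLCO1B1, an organic anion carrier of hepatocytes, and LST-3TM12 were at odds at 16 h, with log2 changes of -0.59 and 0.33. The pair of probes shared by SLC22A23 and PSMG4 gave -0.48 and 0.40. The probe shared by SLC2A3 and SLC2A14, both glucose carriers, gave 0.34 at 16 h and, averaged over 3 h, 6 h and 16 h, -0.13. The probe of SLC25A12, an aspartate-glutamate exchanger, with ZNF680 gave -0.51 in that average. For these 11 probes the adjusted p by limma was 0.83 or above in that average.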
